A study of Drosophila melanogaster with 6 samples.

Results

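The RNA exosome is the main machine that degrades and trims RNA from the 3' end in animal cells, and its subunit genes were followed here across the wild-type and Tailor (CG1091) knockout libraries. The 9 genes Csl4, Rrp4, Mtr3, Ski6, Rrp42, Rrp45, Rrp46, Dis3 and Rrp6 were chosen by name from the 14210 genes listed in each library, and all 9 passed the filter on low values. Polyadenylated RNA was sequenced from Drosophila melanogaster Schneider 2 (S2) cells, an embryonic line with the features of hemocytes, the fly's blood cells. The 3 wild-type libraries carry the genotype wildtype, and the 3 knockout libraries come from S2 cells made stably deficient in CG1091 with CRISPR/Cas9. CG1091 encodes Tailor, a terminal uridylyltransferase. Knockout samples are labelled biological replicates; whether the edited cells are 1 clone, and whether wild-type replicates were grown as separate cultures, is not stated in the labels. All p-values rest on the spread among these libraries, and that spread may be technical.

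In eukaryotes the exosome core is a barrel. A ring of subunits related to the bacterial enzyme RNase PH forms its wall, and a cap of subunits with S1 and KH RNA-binding domains sits on top and guides RNA into the central channel. In yeast and human cells the barrel itself does not cut RNA: the catalytic work falls to Dis3, a processive 3'-to-5' exonuclease at the exit of the channel, and to Rrp6, a nuclear 3'-to-5' exonuclease of the RNase D type docked near the cap. The complex is known for rRNA and snoRNA processing, for removal of faulty nuclear transcripts and for the 3' end of cytoplasmic mRNA decay. Uridine tails added by Tailor are read by another enzyme of the Dis3 family, Dis3l2, which works without the exosome core.

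Each library listed FPKM values (fragments per kilobase of transcript per 1000000 mapped), so that levels of different genes can be set side by side. The deposited confidence intervals gave back fragment numbers that summed to between 18411809 and 22957816 per library. Tailor mRNA stood at 47.7 to 51.3 FPKM in wild type and at 22.3 to 26.1 FPKM in the knockout (log2 difference -0.98). Of 8 hemocyte markers 7 were analysed here, and 5 of these reached at least 1 FPKM in every library, with He and Hml as low exceptions. The summed hemocyte markers ranged from 739.5 to 1002 FPKM in wild type and from 864.9 to 930.5 FPKM in the knockout, a sum carried by Cg25C, vkg and crq. Single markers did not move together: Pxn was lower in every knockout library (1.35 to 1.67 against 2.93 to 3.32 FPKM), while Hml (1.35 to 1.65 against 0.379 to 0.417 FPKM), He, crq and srp were higher in every one. Their part in the subunit differences was not tested. Markers of other cell types summed to 8.14 to 8.97 FPKM in wild type and 10.8 to 11.4 FPKM in the knockout, nearly all of it elav (7.80 to 8.81 and 10.2 to 10.9 FPKM), while 7 of 8 were under 1 FPKM in every library and tj and Lsp2 stood at 0. The FPKM summed over all genes was 5.95% lower in the knockout (672970 against 632952 on average), and this quantity moves with the group.

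Exosome subunit transcripts were lower in the knockout for most of the complex, with 2 exceptions. Of the 9 subunit genes 7 were lower, 0 were higher and 2, Dis3 and Rrp45, did not pass an adjusted p of 0.05 in limma, where 32.1% of the 7259 tested genes were called lower and 62.1% were called in either direction. The 2 groups of libraries did not overlap for the same 7 genes, with the knockout lower in each. Over all tested genes they did not overlap for 67.3% in either direction, and for 34.5% with the knockout lower. By role, both cap genes, 4 of 5 ring genes and 1 of 2 catalytic genes were lower. The median log2 difference of the 9 genes was -0.38, beside -0.01 over all tested genes. The largest difference was 39.1% in Csl4 and the smallest called one 14.9% in Rrp46, so no subunit changed by 2-fold. In bulk RNA, fewer cells expressing a gene and less RNA per cell cannot be told apart.

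**Figure D1:**
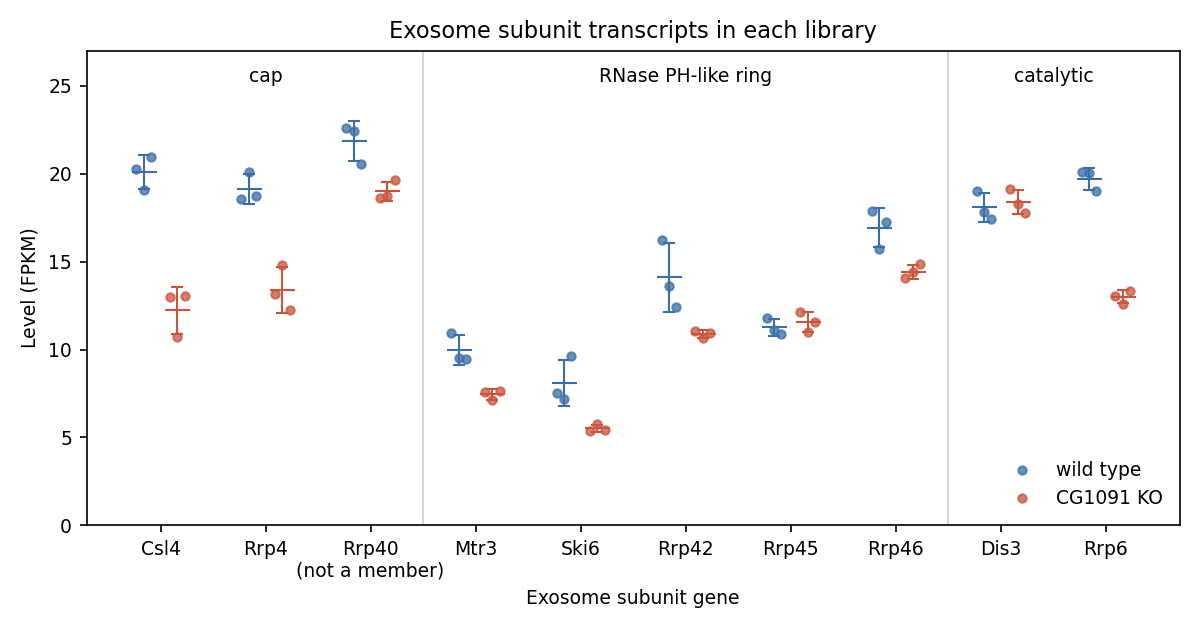
Level in FPKM (vertical axis) of each exosome subunit gene (horizontal axis, by role) in the 3 wild-type and 3 CG1091 KO libraries; points are libraries, bars are the mean and SD. The groups are apart for Csl4, Rrp4 and Rrp6 by several FPKM, and they overlap for Dis3 and Rrp45.

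Both cap members were lower. Csl4 (FBgn0032346, chromosome 2L, 11122564 to 11123792 in the files' own coordinates) encodes a cap protein with an S1 domain. Its transcript stood at 20.3, 19.1 and 20.9 FPKM in wild type and at 13.0, 10.7 and 13.0 FPKM in the knockout. The lowest wild-type library lay 6.04 FPKM above the highest knockout one. Mean levels were 20.1 ± 0.951 and 12.2 ± 1.34 FPKM (SD over 3 libraries), a log2 difference of -0.68 (SE 0.0762, limma adjusted p = 1.98e-05), which placed Csl4 at percentile 4.06 of the differences of all tested genes. Knockout replicate 2 was the lowest Csl4 library, and without it the log2 difference was -0.59.

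Rrp4 (FBgn0034879, 2R, 19442541 to 19443724) encodes a cap protein with S1 and KH domains. It measured 18.6, 20.1 and 18.7 FPKM in wild type and 13.1, 14.8 and 12.2 FPKM in the knockout. The groups did not overlap, and replicate 2 was the highest library in both. Rrp4 was 30.0% lower on average (19.1 ± 0.870 against 13.4 ± 1.304 FPKM, SD, n = 3 libraries each; log2 difference -0.49, SE 0.0707, limma adjusted p = 0.00013).

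Rrp40 (FBgn0260648), the third cap gene of the complex and not among the 9, had the smallest difference of the cap. It measured 22.6, 22.4 and 20.6 FPKM in wild type and 18.6, 18.7 and 19.6 FPKM in the knockout, so the groups lay close without overlapping. The log2 difference was -0.19 (SE 0.0550, limma adjusted p = 0.0103), and its 95% interval, -0.31 to -0.07, lay above that of Csl4, -0.84 to -0.51. The ratio of Csl4 to Rrp40 was 0.897, 0.850 and 1.02 in wild type and 0.697, 0.571 and 0.664 in the knockout. The whole span of Rrp40 lies inside that of the enolase gene Eno on the opposite strand, which averaged 415.7 FPKM in wild type and 820.8 FPKM in the knockout. The library kit is directional, but nothing used here states that strand was applied in counting, which makes the value of Rrp40 uncertain. Rrp40 also missed the threshold in the authors' deposited table (log2 -0.23, adjusted p = 0.0675) and with libraries scaled to the same summed FPKM (limma adjusted p = 0.145).

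Among the ring genes 4 fell, and the size of the fall differed from gene to gene. Ski6 (FBgn0032487, 2L, 13221394 to 13222315), the fly counterpart of yeast Rrp41, had the lowest average level of the 9 in both groups. Its values were 7.52, 7.16 and 9.61 FPKM in wild type and 5.36, 5.76 and 5.42 FPKM in the knockout. All knockout values lay under the wild-type range, and wild-type replicate 3 stood above the other two. The log2 difference was -0.47 (SE 0.0972, limma adjusted p = 0.00145), or -0.36 without wild-type replicate 3. Ski6 also rested on the fewest fragments, 90 to 194 per library, for a counting error of up to 10.5% in a library.

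Mtr3 (FBgn0036916, 3L, 19905505 to 19906798) is a ring protein named after a yeast mRNA transport mutant. It stood at 11.0, 9.50 and 9.47 FPKM in wild type and at 7.60, 7.11 and 7.62 FPKM in the knockout. The groups did not overlap, and the fall was 25.4% on average (log2 difference -0.38, SE 0.0725, limma adjusted p = 0.000958). Rrp42 (FBgn0034065, 2R, 11902483 to 11903559), another RNase PH-like ring protein, measured 16.2, 13.6 and 12.4 FPKM in wild type against 11.1, 10.6 and 10.9 FPKM in the knockout. Its wild-type libraries had an SD of 13.7% of the mean, and its knockout libraries one of 2.08%, spanning 0.446 FPKM. Rrp42 rested on 164 to 276 fragments per library, for a counting error of up to 7.81% in a library. The knockout SD lay under that error, and the difference in spread was not tested. Rrp42 had a log2 difference of -0.34 (SE 0.0836, limma adjusted p = 0.00455). Without wild-type replicate 1, the highest library, that difference was -0.24, and without wild-type replicate 3 it was -0.42.

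Rrp46 (FBgn0037815, 3R, 6239023 to 6239968) had the smallest called difference of the ring. This RNase PH-like gene measured 17.9, 15.7 and 17.2 FPKM in wild type and 14.1, 14.4 and 14.8 FPKM in the knockout. The lowest wild-type library stood 0.862 FPKM above the highest knockout one. The log2 difference was -0.22 (SE 0.0607, limma adjusted p = 0.00951). In the authors' deposited table, a DESeq result, neither Rrp46 (log2 -0.26, adjusted p = 0.0683) nor Rrp42 (log2 -0.38, adjusted p = 0.0534) passed, so 5 of the 9 genes were lower there, where 18.3% of 11643 genes were. With each library scaled to the same summed FPKM, Rrp46 had a log2 difference of -0.14 (limma adjusted p = 0.105).

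Rrp45 (FBgn0030789, X, 16683486 to 16685266) was the ring gene that did not pass. It stood at 11.8, 11.1 and 10.9 FPKM in wild type and at 12.1, 11.0 and 11.6 FPKM in the knockout. The groups overlapped over nearly their whole range. The log2 difference was 0.04 (limma adjusted p = 0.638), with a 95% interval of -0.10 to 0.17, which lay above the intervals of Csl4, Rrp4, Ski6, Mtr3 and Rrp42 and overlapped that of Rrp46 (-0.35 to -0.08). The ratio of Mtr3 to Rrp45 accordingly went from 0.928, 0.857 and 0.870 in wild type to 0.626, 0.646 and 0.659 in the knockout, with no overlap. For Ski6 over Rrp45 the ratios were 0.637, 0.646 and 0.883 in wild type and 0.442, 0.523 and 0.468 in the knockout.

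The catalytic genes parted. Rrp6 (FBgn0038269, 3R, 10708105 to 10711918), the nuclear exonuclease, had 20.1, 20.0 and 19.0 FPKM in wild type and 13.1, 12.6 and 13.4 FPKM in the knockout. Libraries spanned 1.09 FPKM in wild type and 0.753 FPKM in the knockout, and the gap between the groups was 5.65 FPKM. Mean levels were 19.7 ± 0.611 and 13.0 ± 0.381 FPKM (SD over 3 libraries), 34.0% lower in the knockout, with a log2 difference of -0.56 (SE 0.0536, limma adjusted p = 5.56e-06). Rrp6 had the smallest p of the 9 and rested on 907 to 1625 fragments per library.

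Dis3 (FBgn0039183, 3R, 20159145 to 20162971), the processive exonuclease of the core, had 19.0, 17.8 and 17.4 FPKM in wild type and 19.1, 18.3 and 17.8 FPKM in the knockout. The ranges were almost the same. The log2 difference was 0.02 (SE 0.0556, limma adjusted p = 0.738), and its 95% interval of -0.10 to 0.15 did not meet that of Rrp6, -0.68 to -0.45. The ratio of Rrp6 to Dis3 was 1.06, 1.13 and 1.09 in wild type and 0.684, 0.690 and 0.752 in the knockout. In wild type Rrp6 therefore stood slightly above Dis3 in every library, and in the knockout it stood under it in every library. As ratios over members these values were not tested.

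**Figure D2:**
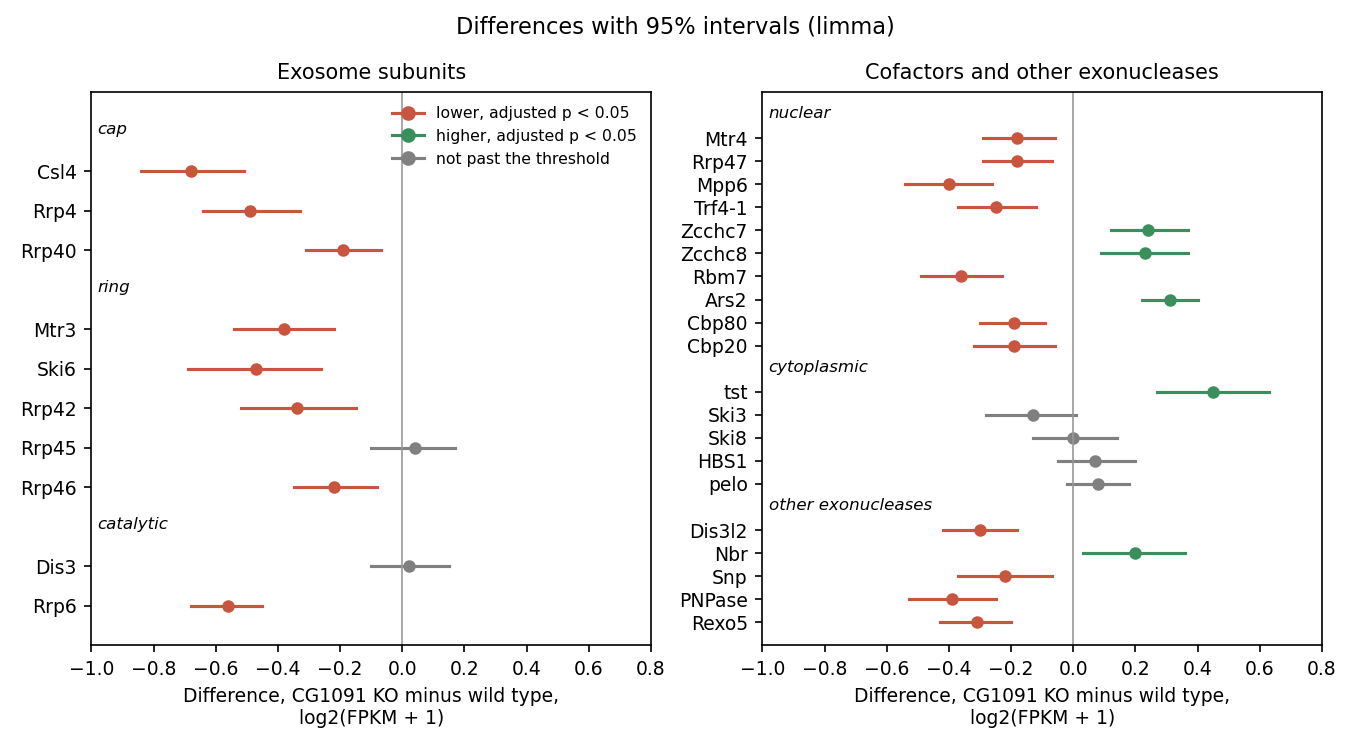
Log2 difference between CG1091 KO and wild type (horizontal axis, log2(FPKM + 1)) with its 95% limma interval for exosome subunits (left) and for cofactors and other exonucleases (right); colour gives the call. Dis3 and Rrp45 straddle 0 while the other subunits lie to its left, and tst, at 0.45, lies furthest to the right.

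The order of the subunits by level changed between the groups. In wild type Csl4, Rrp6, Rrp4, Dis3 and Rrp46 had means of 20.1, 19.7, 19.1, 18.1 and 16.9 FPKM, and each neighbour in that order overlapped the next. Rrp42 followed at 14.1 FPKM, then Rrp45, Mtr3 and Ski6 at 11.3, 9.98 and 8.10 FPKM, and the one gap between neighbours was that between Rrp42 and Rrp45. In the knockout Dis3 stood alone at the top with 18.4 FPKM, above Rrp46 at 14.4 FPKM without overlap. Rrp46, Rrp4, Rrp6, Csl4, Rrp45 and Rrp42 formed a chain of overlapping neighbours from 14.4 to 10.9 FPKM. Mtr3 (7.44 FPKM) and Ski6 (5.51 FPKM) were set apart below them and from each other.

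Summed over the 9 genes, subunit transcripts came to 142.4, 134.1 and 135.8 FPKM in wild type and to 108.5, 105.3 and 106.8 FPKM in the knockout. Expressed per 1000000 of all summed FPKM, which removes the difference in library totals, the sums were 210.2, 198.3 and 204.1 in wild type and 174.7, 160.4 and 171.8 in the knockout. The groups did not overlap on either scale. Members of the cap averaged 19.6 ± 0.201 FPKM in wild type and 12.8 ± 0.222 FPKM in the knockout, ring members 12.1 ± 0.745 and 9.97 ± 0.162 FPKM, and catalytic members 18.9 ± 0.665 and 15.7 ± 0.352 FPKM (SD, n = 3 libraries per group). The small cap SDs do not mean that the cap was measured more exactly. In every library either Csl4 or Rrp4 lay above its group mean and the other lay under it, which narrows their average. Singly, Csl4 and Rrp4 had SDs of 0.951 and 0.870 FPKM in wild type and 1.34 and 1.304 FPKM in the knockout. The 2 cap members made up 28.6% of the summed subunit level in wild type and 24.0% in the knockout, while the ring went from 43.9% to 46.6% and the catalytic pair from 27.5% to 29.4%. Within that pair Dis3 averaged 18.1 FPKM in wild type and 18.4 FPKM in the knockout, whereas Rrp6 averaged 19.7 and 13.0 FPKM. The ratio of the cap mean to the ring mean was 1.51, 1.72 and 1.66 in wild type and 1.301, 1.304 and 1.253 in the knockout. With Rrp40, whose own value is uncertain, counted in the cap, that ratio was 1.59, 1.80 and 1.68 in wild type and 1.49, 1.51 and 1.49 in the knockout. These summaries over members carry no test.

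**Figure D3:**
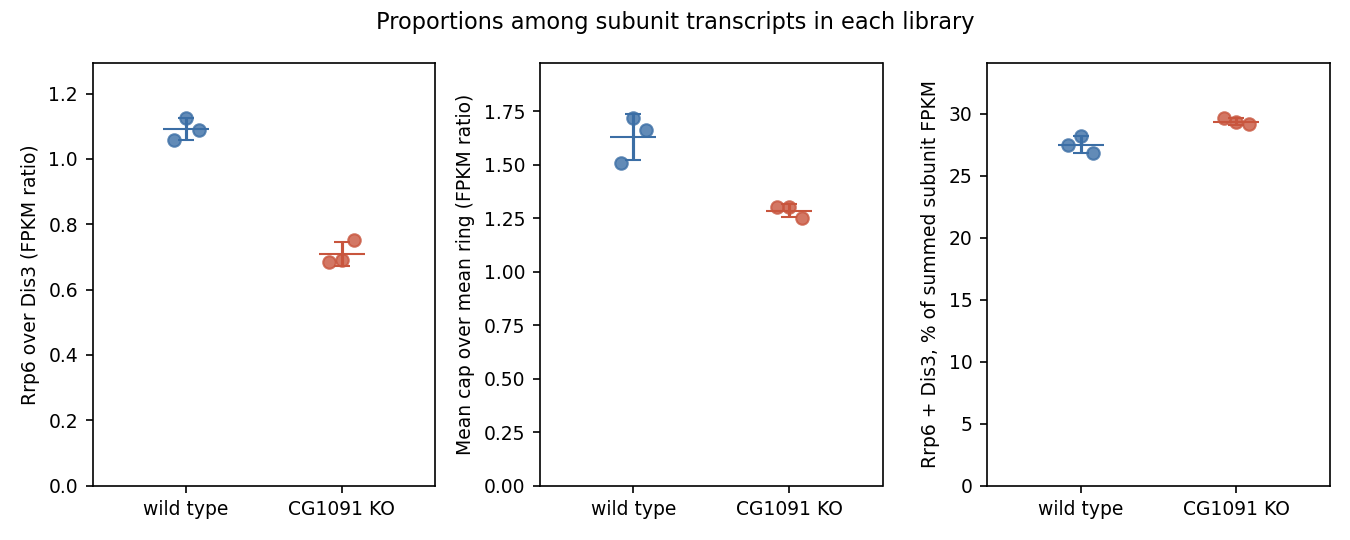
Ratio of Rrp6 to Dis3 (left), ratio of the mean cap level to the mean ring level (middle) and share of Rrp6 and Dis3 in the summed level of the 9 subunits in percent (right), for each library; points are libraries, bars are the mean and SD. Rrp6 over Dis3 lies above 1 in wild type and under 0.8 in the knockout.

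The 7 cap and ring genes have short transcripts, and short transcripts were lower in the knockout in general. Exon lengths were 819 to 1647 nt for the cap and ring members, against 3233 nt for Rrp6 and 3588 nt for Dis3. They come from Ensembl's annotation, where none of the 9 members has the span listed in the files. For Ski6 the 980 nt of exon even exceed the span in the files, 13221394 to 13222315. The lengths behind the FPKM values may therefore differ from those used here. Among 10 groups of tested genes by exon length, the median log2 difference was -0.19 in the shortest and 0.11 in the longest. Csl4, Rrp4, Ski6 and Rrp42 belong to the second group, whose median was -0.10 and where 41.4% of genes were called lower, and Mtr3 belongs to the third, also with a median of -0.10. Rrp46, at -0.22, lay close to the -0.19 of its own length group. Rrp45 (0.04) stood above the -0.07 of its group, Rrp6 (-0.56) far below the 0.07 of the group it shares with Dis3, and Dis3 (0.02) close to it. The part of length in the subunit differences was not tested.

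**Figure D4:**
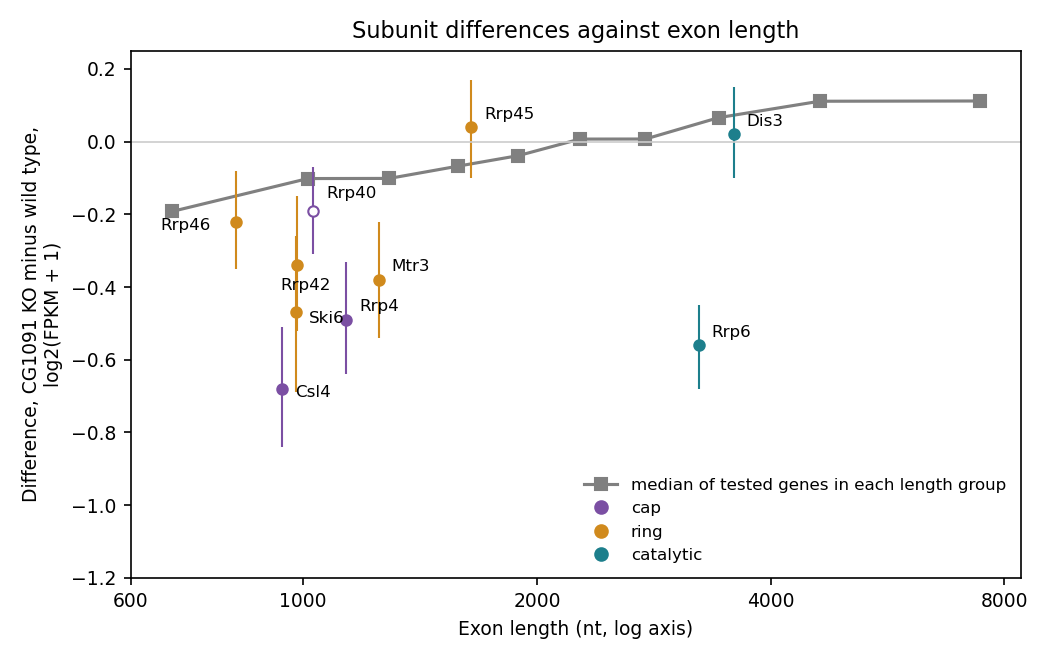
Log2 difference between CG1091 KO and wild type (vertical axis, log2(FPKM + 1), with 95% limma intervals) against exon length in nt (horizontal log axis) for the 9 members and Rrp40 (open point); grey squares are medians of tested genes in 10 length groups. Rrp6 lies at -0.56 beside a group median of 0.07, and Rrp46 close to the line. Exon lengths are from Ensembl's annotation and may differ from those behind the FPKM values.

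The subunit genes are scattered over the genome, on X and on 4 autosome arms. Every member has 1 listed transcript, and 8 of the 9 touch a neighbouring gene. The overlaps are short for Csl4 with Nup160 (14 nt), Ski6 with CG5705 (8 nt), Rrp42 with CG8397 (14 nt) and Rrp46 with CG6345 (29 nt), and longer for Mtr3 with CG7757 (100 nt), Rrp45 with Sap30 (192 nt) and Rrp6 with CG3631 (244 nt). Dis3 overlaps CG6432 by 328 nt, and that gene averaged 0.0449 FPKM. Some of these neighbours were lower in the knockout as well: Nup160, a nuclear pore gene, had a log2 difference of -0.26 (limma adjusted p = 0.00131), CG8397 of -0.38 (7.32e-06), CG5705 of -0.33 (0.0157) and CG3631 of -0.49 (0.000103). CG7757 and Sap30 did not pass, at -0.07 (limma adjusted p = 0.368) and -0.08 (0.255). Without knowing whether strand was used, reads from the overlapping ends cannot be assigned with certainty.

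Nuclear cofactors, which bring RNA to the exosome or help Rrp6, split into 7 lower and 3 higher. Of 11 such genes 10 were tested, and their median log2 difference was -0.18. Among all tested genes 32.1% were called lower, 30.1% higher and 62.1% in either direction. Mtr4, listed as l(2)35Df, is the RNA helicase that feeds the nuclear exosome, and went from 22.4 ± 0.643 to 19.7 ± 0.631 FPKM (SD; log2 difference -0.18, limma adjusted p = 0.0109). The partners of Rrp6 in yeast and human cells, Rrp47 and Mpp6, had log2 differences of -0.18 (limma adjusted p = 0.0101) and -0.40 (0.000252). Mpp6 measured 10.5, 11.5 and 10.7 FPKM in wild type and 7.88, 8.30 and 7.89 FPKM in the knockout. Its span overlaps CG9249 on the opposite strand by 253 nt, so the value of Mpp6 is uncertain. CG9249 was lower as well, at 8.23 FPKM in wild type and 6.30 FPKM in the knockout (log2 difference -0.33, limma adjusted p = 0.0272). With libraries scaled to the same summed FPKM neither Mtr4 nor Rrp47 passed (limma adjusted p = 0.21 and 0.178), and Rrp47 also stood at an adjusted p of 0.0508 in limma without knockout replicate 1, at 0.111 with voom and at 0.186 in the authors' deposited table.

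The noncanonical poly(A) polymerase gene Trf4-1, whose product marks nuclear RNA for decay, fell by 0.25 on the log2 scale (limma adjusted p = 0.00289). Its relative Trf4-2 stood at 0.346 to 0.696 FPKM in wild type and 0.664 to 0.974 FPKM in the knockout, under the filter, and was not tested. CG9715, which RefSeq names Zcchc7 after the human partner of such polymerases, rose from 24.9 ± 0.634 to 29.7 ± 1.89 FPKM (SD; limma adjusted p = 0.0028). The counterparts of human ZCCHC8 and RBM7, which join Mtr4 in the nuclear exosome targeting complex, moved in opposite directions. CG4622, the Zcchc8 counterpart, had a log2 difference of 0.23 (limma adjusted p = 0.0075), and CG11454, the Rbm7 counterpart, one of -0.36 (0.00033). CG4622 and itp share 16295 nt of span on opposite strands, and CG11454 lies inside CG11455 on the same strand, which averaged 141.6 FPKM, so both values are uncertain. Ars2, which links the nuclear cap-binding complex to RNA decay, rose from 67.5 ± 1.72 to 84.2 ± 2.13 FPKM (limma adjusted p = 5.9e-05), whereas the cap-binding genes Cbp80 and Cbp20 each had a log2 difference of -0.19 (limma adjusted p = 0.00504 and 0.0182). Neither Cbp80 nor Cbp20 passed with libraries scaled to the same summed FPKM (limma adjusted p = 0.122 and 0.141), and Cbp20 stood at 0.0668 without wild-type replicate 1 and at 0.0707 without knockout replicate 3.

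Of 5 tested cytoplasmic cofactors 0 fell, 1 rose and 4 did not pass, with a median log2 difference of 0.07, where 32.1% of all tested genes were called lower and 30.1% higher. The gene that rose, twister (tst), encodes the helicase of the Ski complex, which threads mRNA into the cytoplasmic exosome. It measured 3.56, 3.38 and 4.05 FPKM in wild type and 5.27, 5.46 and 5.36 FPKM in the knockout. The groups were well apart, with a log2 difference of 0.45 (SE 0.0813, limma adjusted p = 0.000605). However, tst shares 586 nt of span with CG10375 on the opposite strand, so its value is uncertain. CG10375 averaged 41.1 FPKM and had a log2 difference of 0.01 (limma adjusted p = 0.864). The scaffold and WD-repeat subunits of the same complex, CG8777 (Ski3) and CG3909 (Ski8), had log2 differences of -0.13 (limma adjusted p = 0.106) and 0.00 (0.975). HBS1, a relative of which bridges ribosome and exosome in yeast, stood at 0.07 (limma adjusted p = 0.263), and pelo, a ribosome rescue factor, at 0.08 (0.157). Whether nuclear and cytoplasmic cofactors differ from each other was not tested.

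Other 3'-to-5' exoribonucleases were mostly lower: of 5 tested genes 4 fell and 1 rose, with a median log2 difference of -0.30, where 32.1% of all tested genes were called lower and 30.1% higher. Dis3l2, listed as CG16940, belongs to the same family as Dis3 and acts on uridylated RNA. It stood at 18.7, 17.6 and 18.5 FPKM in wild type and at 13.9, 15.1 and 15.0 FPKM in the knockout (log2 difference -0.30, limma adjusted p = 0.000782). Within the Dis3 family the core enzyme and its relative thus gave log2 differences of 0.02 and -0.30. PNPase (CG11337), a mitochondrial enzyme with RNase PH domains like those of the exosome ring, fell from 10.4 ± 0.299 to 7.68 ± 0.292 FPKM (SD; limma adjusted p = 0.000255). Rexo5 (CG8368), which trims the ends of rRNA and snoRNA, and Snp had log2 differences of -0.31 (limma adjusted p = 0.000412) and -0.22 (0.0157). The spans of PNPase and Rexo5 overlap other expressed genes, PNPase by 454 nt with Gcn2 and by 204 nt with Gprk2 (log2 difference 0.48), and Rexo5 by 1664 nt with zpg, so both values are uncertain. Nibbler (Nbr), which trims microRNA 3' ends, rose by log2 0.20 (limma adjusted p = 0.0374), and its groups overlapped. It shares 148 nt with CG9248 on the opposite strand, which averaged 48.6 FPKM and rose by log2 0.34 (limma adjusted p = 6.19e-05), so the value of Nbr is uncertain too. The Nbr call was lost when any of wild-type replicates 2 and 3 or knockout replicates 1 and 2 was left out (limma adjusted p = 0.135, 0.113, 0.0963 and 0.0891), and that of Snp without wild-type replicate 1 or knockout replicate 3 (0.0567 and 0.0711).

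The tested genes whose profile over the 6 libraries lay closest to the mean profile of the 9 subunits, by Euclidean distance of centred log2 values, were CG6697, CG8292, Best1, Karl and BEAF-32, at 0.0447 to 0.0518. The members themselves lay at 0.116 (Mtr3) to 0.468 (Rrp45) from that mean. With 2 groups of 3 libraries, a small distance says little beyond a like difference between the groups, which for these 5 genes was -0.37 to -0.31 on the log2 scale.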

How the data were processed

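Per the file headers, the deposited per-library tables are Cufflinks gene tables of FPKM with confidence bounds. In the authors' deposited comparison table the columns carry DESeq names: the mean normalised count of each group (a signal), the ratio of wild type to knockout as a fold, the log2 of that ratio, a p-value and an adjusted one. Here its log2 is given as knockout over wild type. Tools named in the submitters' processing notes, with no roles, are DESeq 1.10.1, HTSeq 0.6.1p1, Cufflinks 1.3.0, TopHat 1.4.1 and BWA 0.6.1. No source used here names the genome build. Coordinates are in the files' own frame, counted from 1.

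With no counts deposited, the main test was limma 3.58.1 (R 4.3.3) on log2(FPKM + 1) over the 7259 of 14210 genes averaging 1 FPKM or more, with trended and robust eBayes, two-sided, Benjamini-Hochberg adjusted over all tested genes at 0.05. The script was first run on simulated log2 values with known changes. Fold changes on this scale understate those of low genes. Fragments were recovered as (2 × FPKM / (upper bound − FPKM)) squared, and counting errors derived from them cover counting only. At most 0.041% of tested genes had an identical FPKM in any 2 libraries. Exon lengths came from Ensembl's BDGP6 annotation by gene identifier (95.2% of tested genes), and counterpart names of cofactors from RefSeq. The members and lists were chosen with earlier results of these data known. Named genes were the members, the cofactor lists, CG1091 and the 5 nearest profiles. Cell type markers were srp, Pxn, Cg25C, vkg, crq, NimC1, He and Hml, and for other types elav, Mhc, vas, nos, bam, tj, repo and Lsp2. Figures used matplotlib 3.10.9 in Python 3.11.15.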

Additional observations from a re-analysis of the deposited data

How the results depend on the processing

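Results were recomputed with other pseudocounts (0.1, 5), other filters (none, 5 FPKM), scaling by medians or quantiles, plain eBayes, a replicate block, 1 replicate left out at a time, status OK only, voom on the recovered fragments, the authors' deposited table and, chosen after seeing the data, scaling to 1000000 summed FPKM. Csl4, Rrp4, Mtr3, Ski6 and Rrp6 were called lower under all 18. The count of members called lower was 7 in all but the authors' deposited table (5) and the scaling to summed FPKM (6), and 0 members were called higher under any. The median log2 difference of the members was -0.27 with a pseudocount of 5, which shrinks differences by construction, and -0.41 to -0.31 when 1 replicate was left out. Scaling to summed FPKM lowered the share of lower genes among all calls from 51.6% to 37.8% and raised the median of all genes to 0.075. It also ended the calls of Rrp40, Mtr4, Rrp47, Cbp80, Cbp20 and Snp, and added those of HBS1 and pelo. Nbr also missed the threshold with no filter (adjusted p = 0.0753) and in the authors' deposited table (0.0597). The sign of 2 uncalled genes turned: Dis3 (-0.0041 to 0.058 with 1 replicate left out, -0.0023 in the authors' deposited table) and Ski8 (-0.027 to 0.047, -0.0075 with median scaling, -0.026 in the authors' deposited table); the cause was not tested. Shared replicate numbers did not pair the libraries (correlations of deviations -0.0495, 0.00286 and -0.032). With the replicate block 7 members were called lower, among 4393 called genes in all against 4509 without it. Among the 9 members depth limits Ski6 most, with 90 fragments in its lowest library; Trf4-2, which was not tested, had 11.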
